A study of Mus musculus and synthetic construct with 30 samples.

Results

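The Ef1a promoter was present in the oligo pool of a massively parallel reporter assay (MPRA) as 2 sets of tiles, a native set and a scrambled set. An MPRA places many short DNA elements on reporter plasmids, tags each plasmid with a barcode, and reads the activity of an element from the RNA of its barcodes relative to the DNA of the same barcodes. The members described here are the oligos whose name in the oligo annotation starts with Ef1a, split by whether the name marks a scrambled copy. They comprise 230 oligos, 115 native and 115 scrambled, among the 23420 barcodes of the count table. Each set covered 23 tiles of 90 bases that started every 49 bases, so that neighbouring tiles shared 41 bases, and each tile was designed with 5 barcodes of 10 bases.

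Ef1a is the gene of translation elongation factor 1 alpha, which carries aminoacyl-tRNA to the ribosome and is transcribed strongly in nearly every cell. Its promoter, commonly taken from human EEF1A1, is a constitutive promoter of expression vectors and contains a TATA box close to the transcription start followed by a non-coding first exon and a first intron that adds to its strength. In the assay each element was placed next to a minimal promoter and a GFP reporter, so a tile was read for what it added to that minimal promoter and not as a complete promoter.

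Counts came from 5 RNA libraries of GFP transcripts from transfected C2C12 cells, a mouse myoblast line, and from 5 libraries of the plasmid pool itself (vector DNA). No treatment or genotype separated the samples. The libraries carried the letters A and B (RNA A_1, A_2, B_1, B_2 and B_3, DNA A_1, A_2, A_3, B_1 and B_2). The study took RNA at 2 passages and made DNA libraries on 2 days, and which letter stood for which is not given in the sources used here. All 10 libraries held the same barcodes, so the library error given below covers the spread between libraries and not that between barcodes. Totals were 18725458 to 35098552 counts in RNA and 9846269 to 24602523 in DNA, of which native Ef1a barcodes took 0.436 to 0.502% in RNA and 0.551 to 0.563% in DNA. Scrambled Ef1a barcodes took 0.646 to 0.684% in RNA and 0.805 to 0.83% in DNA. Both sets thus took a smaller share of all counts in RNA than in DNA, although their mean tile ratios below are above 0. Those ratios are relative to the median kept barcode of a library, and their sign holds for that reference. The median was 635 in RNA A_1 (24400035 counts in all) and 414 in DNA A_1 (10629021). Scaling to total counts was not tested.

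The native tiles on which the results turned are printed 5′ to 3′, from the oligo annotation. Capitals mark the letters TATATAA (the TATA box), GGGCGG (the GC box bound by Sp1 and its relatives, on either strand) and AAGATGG (part of the site of the factor YY1). Native 1 was the lowest native tile and holds none of them. Native 3 and native 4 share the TATA box, which lies at bases 76 to 82 of native 3 and at bases 27 to 33 of native 4. Native 16 and native 17 share the AAGATGG stretch, at bases 69 to 75 and 20 to 26.
native 1: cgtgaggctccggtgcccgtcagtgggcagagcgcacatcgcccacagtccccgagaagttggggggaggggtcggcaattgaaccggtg
native 3: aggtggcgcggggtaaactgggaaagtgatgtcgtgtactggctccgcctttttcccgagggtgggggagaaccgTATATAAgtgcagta
native 4: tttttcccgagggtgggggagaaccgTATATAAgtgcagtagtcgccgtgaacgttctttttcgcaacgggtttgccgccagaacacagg
native 16: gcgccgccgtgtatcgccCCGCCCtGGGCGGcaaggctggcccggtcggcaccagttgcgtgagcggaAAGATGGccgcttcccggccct
native 17: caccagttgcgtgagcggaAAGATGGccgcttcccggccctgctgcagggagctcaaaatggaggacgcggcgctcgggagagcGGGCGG

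The scrambled copies of positions 3 and 16 are given as the position-matched counterparts, and carry none of the 3 motifs. Scrambled 18 and scrambled 19 were the highest scrambled tiles, and the capitals in them mark the 41 bases that they share.
scrambled 3: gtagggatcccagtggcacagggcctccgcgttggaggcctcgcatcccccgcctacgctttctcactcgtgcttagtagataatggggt
scrambled 16: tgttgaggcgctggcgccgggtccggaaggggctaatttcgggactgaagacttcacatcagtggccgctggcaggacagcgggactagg
scrambled 18: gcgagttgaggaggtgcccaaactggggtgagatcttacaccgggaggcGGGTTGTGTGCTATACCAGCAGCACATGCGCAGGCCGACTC
scrambled 19: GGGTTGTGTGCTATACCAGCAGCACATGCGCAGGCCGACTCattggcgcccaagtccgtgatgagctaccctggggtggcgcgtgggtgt

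Merged over their shared bases, the native tiles gave a sequence of 1168 bases with 187 A, 309 C, 392 G and 280 T. The scrambled tiles gave one of 1168 bases with 187 A, 308 C, 390 G and 283 T. CpG dinucleotides numbered 95 and 90. Because each set joined into a continuous sequence, composition was matched over the promoter as a whole and not tile by tile. The GC content of the native tiles ran from 37.8 to 75.6%, with 0 to 15 CpG, and that of the scrambled tiles from 50 to 66.7%, with 2 to 13 CpG. At a given position the native and scrambled tiles had 21.1 to 34.4% of their bases in common.

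All 230 barcodes were listed in the count table. A barcode was kept when it had 10 or more counts in 3 or more DNA libraries, which left 88 of 115 native barcodes (76.5%) and 101 of 115 scrambled barcodes (87.8%). All 5 barcodes were kept in 8 native tiles and 13 scrambled tiles. The native losses were heaviest at the GC-rich positions 13 to 16, the only native tiles above 70% GC, where 11 of 20 barcodes were kept (55.0%) against 45 of 55 in the native tiles below 60% GC (81.8%). Native 13 kept 1 barcode and native 14 kept 2, while native 16, with 74.4% GC, kept all 5. Across the 23 native tiles the number of kept barcodes correlated with GC content at r = -0.34 (Spearman rho = -0.29), and across the 23 scrambled tiles at r = 0.22 (rho = 0.28). Neighbouring tiles share bases, and these correlations are descriptions. Native 21 (2 barcodes), scrambled 14 (2) and scrambled 17 (2) also fell below the 3 barcodes set for a test, which left 20 native tiles, 21 scrambled tiles and 19 positions with both.

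For a barcode, activity was the log2 ratio of RNA to DNA on a scale where the median kept barcode of each library is the reference. Barcodes with a log2 ratio above 1 and an adjusted p below 0.01 in edgeR's quasi-likelihood test, fitted on all 16285 kept barcodes, were called active, and those below -1 at the same adjusted p were called lower. Among the kept native barcodes 9 of 88 were active (10.2%), and among the scrambled barcodes 4 of 101 (3.96%), where 4.19% of all kept barcodes were active. By contrast, 1 native barcode and 0 scrambled barcodes were lower, against 2.14% of all kept barcodes. The active native barcodes fell in 4 tiles, with 5 in native 16, 2 in native 3 and 1 each in native 4 and native 7. The active scrambled barcodes fell in the neighbouring tiles 18 (1) and 19 (3). With the fold threshold removed, 40 native barcodes (45.5%) and 40 scrambled barcodes (39.6%) were higher in RNA at the same adjusted p, beside 23.4% of all kept barcodes. At that adjusted p 13 of 88 native and 11 of 101 scrambled barcodes were lower in RNA. Among the kept barcodes of annotated locus tiles 116 of 615 were lower, and the share over all kept barcodes was not computed.

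For a tile, the value in a library was the median over its kept barcodes of the log2 count relative to the library median, after each barcode was centred on its own mean over the 10 libraries. The tile's log2 ratio is the mean of this value over RNA libraries minus that over DNA libraries, given with its standard error over libraries. Each tile was tested with a two-sided exact permutation test over the 10 libraries, and p-values of all 189 annotated tiles with 3 or more kept barcodes were adjusted together (Benjamini-Hochberg). The smallest p that 5 against 5 libraries allow is 0.00794. Tiles at that p had an adjusted p of 0.0192. RNA was higher than DNA in 10 of 20 native tiles and in 9 of 21 scrambled tiles, and lower in 4 native and 2 scrambled tiles. Over all 189 tiles, which include the 41 tested Ef1a tiles and those of the other control promoter, 36% were higher and 14.8% lower. The native tiles had a median log2 ratio of 0.22 and ran from -0.69 to 1.27, with an SD of 0.49 among tiles. The scrambled tiles had a median of 0.14 and ran from -0.42 to 1.08, with an SD of 0.37. For reference, 136 tested tiles of genomic loci had a median of 0.03 and an SD of 0.29. They come from the part of the oligo annotation used here and do not stand for the whole pool.

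Native 3, the tile in which the TATA box lies near the 3′ end, had the highest ratio of the native set, close to native 16 at 1.24. The order of these tiles depended on the setting. With a pseudocount of 10 native 16 stood higher (1.23 against 1.13), and with the mean over barcodes native 3 did (1.63 against 1.44). The RNA values of native 3 were 0.65, 0.62, 0.58, 0.48 and 0.81 in A_1, A_2, B_1, B_2 and B_3. Its DNA values were -0.45, -0.89, -0.52, -0.78 and -0.58 in A_1, A_2, A_3, B_1 and B_2. Every RNA library stood above every DNA library. The log2 ratio was 1.27 ± 0.10 (SE, 5 RNA and 5 DNA libraries), a fold of 2.42 (exact permutation p = 0.00794, adjusted p = 0.0192). The kept barcodes of native 3 spread far more than its libraries, from 0.63 to 3.62, with an SD of 1.39 over 4 barcodes. They were also thinly represented in the plasmid pool, at mean DNA counts of 34.0 to 474.8. The barcode at 474.8 had the lowest ratio, 0.63. With counts summed over barcodes the ratio of native 3 was 2.06. With a minimum of 50 DNA counts it kept fewer than 3 barcodes and was not tested. The barcode at 3.62, ttccactcgt, had 2718, 1650, 2994, 1238 and 1512 counts in the RNA libraries and 113, 155, 114, 216 and 210 in the DNA libraries, in the order given above. It was the most active Ef1a barcode, with an edgeR log2 ratio of 3.67 ± 0.13 (SE) and an adjusted p of 7.44e-21. The other active barcode of native 3, atgcaaggtg, had 81 to 140 RNA counts and 23 to 66 DNA counts, and a log2 ratio of 1.57 ± 0.28.

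Native 4 holds the same TATA box closer to its 5′ end, and its ratio was 0.15 ± 0.12 (fold 1.11, exact permutation p = 0.262, adjusted p = 0.346). In the native 4 libraries RNA ran from -0.13 to 0.45 and DNA from -0.30 to 0.05, so the groups overlapped. Its 4 kept barcodes ran from -0.47 to 1.75. The highest of them, ggtaacgagg, was active, with 468 to 834 RNA counts and 87 to 374 DNA counts (log2 ratio 1.73 ± 0.14). Native 2, which overlaps native 3 on the upstream side and lacks the TATA box, had a ratio of 0.38 ± 0.11 (exact permutation p = 0.0238, adjusted p = 0.0469).

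Native 16 was the other native tile above a log2 ratio of 1, and the only tested Ef1a tile of either set in which every kept barcode exceeded 1. Its RNA values were 0.81, 0.71, 0.57, 0.52 and 0.55, and its DNA values -0.51, -0.62, -0.76, -0.55 and -0.60. RNA and DNA libraries did not overlap, and both A libraries of RNA were above the 3 B libraries. The ratio was 1.24 ± 0.07, a fold of 2.36 (exact permutation p = 0.00794, adjusted p = 0.0192), with 1.39 within the A libraries and 1.12 within the B libraries. Each of the 5 barcodes was active, at a log2 ratio between 1.12 and 2.51. The highest, gttaggtcgt, had 501 to 873 RNA counts and 67 to 175 DNA counts. The other active barcodes, acgttatggt, actcgtgctt, cacctatggt and cgattcgttt, had mean DNA counts of 462.6 to 2177 and edgeR log2 ratios of 1.12 to 1.30.

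The tile ratios downstream of native 16 were above 0, but not all of them passed the test. Native 17 shares the AAGATGG stretch and had a ratio of 0.62 ± 0.03 (fold 1.54), with its 4 barcodes between 0.32 and 0.73. In native 18, which holds a GC box and the AP-1 letters TGANTCA, the RNA values were 0.40, 0.28, 0.30, 0.39 and 0.29 and the DNA values -0.39, -0.32, -0.32, -0.27 and -0.38. The groups were again apart, and the ratio was 0.67 ± 0.03 (fold 1.59), with 3 barcodes between 0.48 and 0.80. Native 19 followed at 0.41 ± 0.04 and native 20 at 0.15 ± 0.08. The exact permutation test gave p = 0.00794 (adjusted p = 0.0192) for native 17, 18 and 19, and p = 0.103 (adjusted p = 0.158) for native 20. Upstream, native 15 ends with the first 41 bases of native 16 and stood at -0.02 ± 0.06 (exact permutation p = 0.682, adjusted p = 0.746).

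Native 7 was the fourth highest tested native tile. RNA values of 0.31, 0.26, 0.36, 0.30 and 0.35 lay above DNA values of -0.09, -0.28, -0.31, -0.64 and -0.36. The ratio was 0.65 ± 0.09, a fold of 1.57 (exact permutation p = 0.00794, adjusted p = 0.0192). It rested on 3 barcodes that ran from -0.04 to 1.04, of which 1, ttggccttat, was active with 2758 to 4505 RNA counts and 1078 to 2444 DNA counts. Without a count minimum the ratio of native 7 was 0.31 and its adjusted p 0.0701 by the exact permutation test.

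Native 1, at the 5′ end of the promoter, was lowest. Its RNA values were -0.38, -0.31, 0.01, -0.62 and -0.45 and its DNA values 0.26, 0.43, 0.07, 0.37 and 0.54. Every RNA library lay below every DNA library, with RNA B_1 and DNA A_3 close to each other. The ratio was -0.69 ± 0.13, a fold of 0.622 (exact permutation p = 0.00794, adjusted p = 0.0192). All 4 barcodes were below 0, but they spread widely, at -1.33, -1.27, -0.26 and -0.13. Those at -1.27 and -0.13 had mean DNA counts of only 37.8 and 55.2. With a minimum of 50 DNA counts the ratio of native 1 was -0.47. Its barcode cacgcatttt was the lower Ef1a barcode, with 540 to 839 RNA counts and 989 to 2379 DNA counts (log2 ratio -1.33 ± 0.08, edgeR adjusted p = 2.21e-15). Without DNA B_1 the adjusted p of native 1 was 0.0511 by the exact permutation test.

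Native 9 was the second lowest. Values of 0.09, -0.10, -0.26, -0.27 and -0.19 in RNA stood against 0.21, 0.27, 0.32, 0.06 and 0.16 in DNA. RNA A_1 overlapped the DNA libraries. The ratio was -0.35 ± 0.08, a fold of 0.786 (exact permutation p = 0.0159, adjusted p = 0.0333), but its 5 barcodes ran from -0.80 to 0.54, with 2 above 0. When counts were summed over the barcodes the ratio was 0.03 (exact permutation p = 0.492, adjusted p = 0.538), and without DNA A_3 or DNA B_2 the adjusted p was 0.0506 or 0.0517. Native 5, which contains the splice donor letters GGTAAGT, was also lower, at -0.21 ± 0.03 (exact permutation p = 0.00794, adjusted p = 0.0192). Its 4 barcodes ran from -0.87 to 0.19, with 2 above 0. Native 10 was lower as well, at -0.24 ± 0.08 (exact permutation p = 0.0238, adjusted p = 0.0469). There the 5 barcodes ran from -0.57 to 0.28, again with 2 above 0.

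The scrambled set held its highest values in a neighbouring pair. Scrambled 19 had RNA values of 0.51, 0.64, 0.48, 0.40 and 0.56 and DNA values of -0.53, -0.69, -0.46, -0.29 and -0.82. The groups were apart, with DNA B_1 the highest and DNA B_2 the lowest of the DNA libraries. The ratio was 1.08 ± 0.10, a fold of 2.11 (exact permutation p = 0.00794, adjusted p = 0.0192), and all 5 barcodes lay between 0.79 and 1.42. Of these, acacgacgtc (3093 to 5618 RNA counts), gtagatccgg (668 to 1184) and acgggaaatt (54 to 160) were active.

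In scrambled 18 the RNA values were 0.55, 0.53, 0.37, 0.37 and 0.34 and the DNA values -0.48, -0.39, -0.58, -0.40 and -0.34. RNA was higher in the A than in the B libraries. The ratio was 0.87 ± 0.06, a fold of 1.83 (exact permutation p = 0.00794, adjusted p = 0.0192), with 1.02 within the A and 0.73 within the B libraries. The 5 barcodes agreed closely, from 0.89 to 1.11, and the highest, accaagtaac, was active with 902 to 1964 RNA counts. Because the median is taken library by library, a tile's value can fall slightly outside the range of its barcodes. Scrambled 20, which follows, had a ratio of 0.28 ± 0.06, and scrambled 17, which precedes the pair with 2 kept barcodes, had 0.31 ± 0.05 and was not tested.

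At the other end, scrambled 1 and scrambled 12 were lowest. Scrambled 1 had RNA values of -0.14, -0.26, -0.26, -0.08 and -0.31 against DNA values of 0.29, 0.23, 0.31, 0.16 and 0.04. Scrambled 12 had -0.19, -0.34, -0.12, -0.09 and -0.30 against 0.12, 0.28, 0.12, 0.14 and 0.25. RNA was below DNA without overlap in both tiles. The ratios were -0.42 ± 0.07 and -0.39 ± 0.06, folds of 0.749 and 0.763 (exact permutation p = 0.00794, adjusted p = 0.0192 each). All 4 barcodes of scrambled 12 were below 0, and 1 of 5 in scrambled 1 was above it.

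Position by position, the native tile was higher than its scrambled counterpart at 6 of 19 positions and lower at 7 (exact permutation tests over libraries, adjusted over the 19 positions), and 6 positions did not pass. The differences ran from -0.66 to 1.12 with a median of -0.10. The kept barcodes of the native and scrambled tile did not overlap at 5 positions: native was higher at positions 3, 12 and 16, and scrambled at positions 18 and 19. At the other 14 positions some native barcodes lay within the range of the scrambled ones or the reverse. Within a tile the barcodes varied more in the native than in the scrambled set, with a pooled SD of 0.58 (87 barcodes in 22 tiles) against 0.32 (101 barcodes in 23 tiles). Among barcodes with a mean DNA count of 200 or more the pooled SDs were 0.51 (70 barcodes) and 0.30 (91 barcodes), and among those below 200 they were 0.79 (17) and 0.47 (10). Differences between tile means made up 53.4% of the barcode sum of squares in the native set and 61.6% in the scrambled set. Such a share is above 0 even without tile differences, since each mean rests on few barcodes. No baseline for it was computed.

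The largest difference in favour of the native sequence was at position 3, where native 3 at 1.27 stood against scrambled 3 at 0.16. The difference was 1.12 ± 0.13 (exact permutation p = 0.00794, adjusted p = 0.0168), and it was 1.91 when counts were summed over the barcodes of a tile. Position 7 came second, with 0.65 against -0.08 and a difference of 0.73 ± 0.11 (exact permutation p = 0.00794, adjusted p = 0.0168), although the barcodes of its tiles overlapped and the difference was 0.29 without a count minimum. At position 16 the native 1.24 compared with a scrambled 0.59, a difference of 0.65 ± 0.10. Position 12 differed by 0.67 ± 0.07, with all 5 native barcodes between 0.20 and 0.57 and all 4 scrambled barcodes below 0.

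In the opposite direction, position 19 had the scrambled tile higher, 1.08 against 0.41, a difference of -0.66 ± 0.12 (exact permutation p = 0.00794, adjusted p = 0.0168). Position 23, the GC-poor 3′ end of the native promoter (37.8% GC against 63.3% in its scrambled copy), followed with 0.09 against 0.56, a difference of -0.47 ± 0.06 (exact permutation p = 0.00794, adjusted p = 0.0168). At position 18 native 0.67 and scrambled 0.87 differed by -0.20 ± 0.07 (exact permutation p = 0.0159, adjusted p = 0.0274).

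Averaged over the 19 positions, the native and scrambled promoters were nearly level. The native minus scrambled value was 0.10, 0.03, 0.02, -0.01 and 0.02 in the RNA libraries and 0.04, -0.04, -0.05, -0.08 and -0.03 in the DNA libraries. RNA B_2 fell among the DNA libraries, and DNA A_1 among the RNA libraries. The difference was 0.06 ± 0.03 on the log2 scale, a fold of 1.04 (exact permutation p = 0.0476), with 0.08 within the A libraries and 0.06 within the B libraries. Without the barcode minimum for DNA counts the difference was 0.000196 (exact permutation p = 1), and leaving out RNA A_1 gave 0.04 (exact permutation p = 0.0952). The call was also lost without any other library except RNA B_2 or DNA A_1. Without positions 18 and 19 the difference was 0.12. That choice was made after their values were seen. Both positions had negative differences, so the mean could only rise and the rise is not a test.

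The cytomegalovirus (CMV) promoter was the other control promoter of the pool and was tiled in 9 native tiles with 45 barcodes. Of its 43 kept barcodes 25 were active (58.1%), compared with 9 of 88 for native Ef1a. The mean native Ef1a tile minus the mean native CMV tile was -0.51, -0.39, -0.80, -0.79 and -0.83 in RNA and 0.71, 0.68, 0.68, 0.62 and 0.64 in DNA. The groups were far apart, with the B libraries of RNA below the A libraries. The difference was -1.33 ± 0.09 on the log2 scale, which places the Ef1a tiles at 0.398 of the CMV tiles (exact permutation p = 0.00794), with -1.14 within the A and -1.44 within the B libraries. The mean ratio of the native Ef1a tiles was 0.26 ± 0.02 and that of the scrambled Ef1a tiles 0.18 ± 0.01.

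The tile ratio followed GC content weakly in the native set. Across the 20 tested native tiles r was 0.12 (rho = 0.05), and across the 21 tested scrambled tiles it was 0.35 (rho = 0.46). The SD of r over the 5 RNA libraries was 0.05 in each set. It covers library noise only and not the uncertainty of r over few, overlapping tiles. Native 13, 14, 15 and 16 all exceeded 70% GC and had ratios of 0.09, 0.01, -0.02 and 1.24, the first 2 from 1 and 2 barcodes. CpG count gave r = 0.07 in the native and 0.11 in the scrambled tiles. The difference in GC between the native and scrambled tile of a position had r = 0.09 with the difference in their ratios (n = 19 positions, rho = 0.03).

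Position along the promoter tracked the ratio more closely in the scrambled set (r = 0.62, rho = 0.67, n = 21) than in the native set (r = 0.21, rho = 0.21, n = 20). The difference between the sets was not tested. Adjacent scrambled tiles correlated at r = 0.47 (18 pairs) and adjacent native tiles at r = 0.17 (17 pairs), where each pair shares 41 bases. Native and scrambled ratios at the same position correlated at r = 0.44 (rho = 0.46, n = 19), although the tiles share few bases. These tiles were measured in the same libraries, and the correlations are descriptions across tiles that are not independent. With the log2 median DNA count of a tile, the ratio correlated at r = -0.26 in the native and r = 0.21 in the scrambled set.

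Motifs were searched on both strands of all 240 annotated tiles. TATATAA occurred in native 3 and 4 and in 0 scrambled tiles (2.5% of all tiles). GGGCGG occurred in native 12, 13, 15, 16, 17 and 18 and in scrambled 5 and 6 (10% of all tiles). The 5 tested native tiles with GGGCGG had a median ratio of 0.62, against 0.15 in the other 15, while the scrambled pair stood at a median of -0.03 against 0.16. Native 15 carries GGGCGG on each strand and had the ratio of -0.02 given above, so the letters occurred in native tiles with both high and near-zero ratios.

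AAGATGG occurred in native 16 and 17, with a median of 0.93, and in 0 scrambled tiles (1.25% of all tiles). TGANTCA was found in native 18 alone among the Ef1a tiles (2.08% of all tiles), and GGTAAGT in native 5 alone (0.833%). The E box letters CANNTG, which myogenic factors such as MyoD bind, are common by length alone (37.5% of all tiles) and occurred in 8 native tiles (1, 2, 13, 14, 16, 17, 19 and 22) and 9 scrambled tiles. The 6 tested native tiles with CANNTG had a median ratio of 0.44 against 0.12 in the other 14, and the 8 tested scrambled tiles with it had 0.15 against 0.14. CCAAT was found in 0 native and 7 scrambled tiles (14.2% of all tiles), with a median of 0.02 in the scrambled tiles that held it and 0.15 in the others. TGACGT, the letters of a cAMP response element core, was found in 0 Ef1a tiles (4.58% of all tiles). Neighbouring tiles share motifs through their common bases, and a match is a description of the letters and not of a bound site.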

How the data were processed

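The authors deposited a table of raw read counts per barcode, without further normalization. The oligo annotation used here covered 1196 oligos and 240 tiles, and the rest was not used here. Members and lists were chosen with earlier results of these data known. Libraries were scaled to the median of kept barcodes with 10 or more counts, as in the study, whose own analysis code left out Ef1a barcodes. Barcodes were tested with edgeR 4.0.16 (R 4.3.3) on 16285 barcodes. Tile values used a pseudocount of 1. Tile p-values were adjusted over all 189 annotated tiles, where the design written first named the 41 Ef1a tiles. Named tiles were the 4 highest and 2 lowest native, the 2 highest and 2 lowest scrambled, the 2 extreme positions each way, and native tiles with a listed motif. Further tiles were named after their values were seen. Scripts were tested on simulated data. The closest replicate pair differed beyond counting noise (chi-square per degree of freedom 2.91). Reads carried no molecular identifiers named in the sources used here, so depth covers counting error only. Equal library labels did not pair RNA with DNA (correlation of deviations -0.0838 to 0.0614). Other samples of the series were not used.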

Additional observations from a re-analysis of the deposited data

How the results depend on the processing

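The named tiles and positions and the Ef1a to CMV difference kept their direction and call under TMM factors, a pseudocount of 10 and the mean over barcodes. With 50 counts as the minimum the same held for those still tested, while native 3 and positions 3 and 19 kept fewer than 3 barcodes in a tile and gave no value. Active barcodes were 9 native and 4 scrambled under TMM factors and 8 and 4 at 50 counts, where 84 native and 97 scrambled barcodes were kept. The native minus scrambled mean did not hold its call: 50 counts gave 0.0544 (exact permutation p = 0.0952), no count minimum gave 0.000196, and leaving out each library gave 0.0415 to 0.0811, with the call lost in 8 of 10 cases (all but RNA B_2 and DNA A_1, exact permutation p of 0.0556 to 0.0952). By position, 4 to 8 scrambled-higher calls were made when each library was left out, the 4 without RNA A_2 or DNA A_1. Lower calls were 2 to 5 for native tiles in those fits (2 without DNA B_1 or DNA B_2), and 4 for scrambled tiles with summed counts. Summed counts also turned native 9 to 0.0331. A log2 threshold of 0 gave 40 active native and 40 active scrambled barcodes. With tiles of 1 or more barcodes the native correlation with GC was 0.0221. Taking equal library labels as a replicate block (4 pairs) gave 0.0618 for native minus scrambled and -1.28 for Ef1a minus CMV, both with exact permutation p = 0.125, the smallest that 4 pairs allow, and 9 native and 4 scrambled active barcodes. The cause of these shifts was not tested. DESeq2 called 9 native and 4 scrambled barcodes. Adjusting over the Ef1a tiles alone gave 10 higher native and 10 higher scrambled tiles. Within the A or B libraries 2 against 3 allow no p below 0.1. Precision is limited by the 1 to 5 barcodes of a tile, since library error leaves out their spread.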

Other observations

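The native tiles were compared with the mouse gene after the values above were known. None of the 46 Ef1a tiles matched the mouse genome (GRCm38) exactly over 90 bases. Each tile was then aligned to the mouse Eef1a1 gene, from 250 bases before its RefSeq start on the minus strand of chromosome 9 into the first intron. The scrambled tiles reached at most 67.8% identity, and 14 of the 23 native tiles exceeded that. Native 4 and 17 reached 90.0%, native 3 reached 88.9% and native 18 reached 86.7%. Native 3 aligned without gaps across the start of exon 1 (exon 1 at chr9:78481639-78481724), to bases -52 to 37 from the RefSeq start. Its TATA box, near the 3′ end of the tile, thus aligned inside the annotated exon 1. The RefSeq start lay upstream of the box. Native 16, 17 and 18 aligned within intron 1 (chr9:78480689-78481638). The mouse stretches, from the reference genome, are printed with the same capitals to show which of the marked letters the mouse gene also holds.
mouse stretch aligned to native 3, chr9:78481687-78481776, minus strand: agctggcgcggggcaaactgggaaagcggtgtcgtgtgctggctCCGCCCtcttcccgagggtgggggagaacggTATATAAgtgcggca
mouse stretch aligned to native 16, chr9:78481029-78481121, minus strand: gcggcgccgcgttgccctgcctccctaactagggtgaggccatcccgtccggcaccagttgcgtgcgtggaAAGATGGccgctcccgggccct
mouse stretch aligned to native 17, chr9:78480979-78481069, minus strand: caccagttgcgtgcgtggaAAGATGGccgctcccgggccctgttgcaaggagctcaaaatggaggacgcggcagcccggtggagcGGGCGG
The TATA box of native 3, the AAGATGG stretch and the GC box of native 17 were present in the mouse stretches, whereas the GC box pair of native 16 was not. Conversely, the mouse stretch aligned to native 3 held a GC box on the other strand that native 3 lacks. Across the 20 tested native tiles the identity to mouse correlated with the log2 ratio at r = 0.48 (rho = 0.47). The SD of r over the RNA libraries was 0.06, which covers library noise only. In the 21 tested scrambled tiles the correlation was -0.01. Native 4, at 90.0% identity, had a ratio of 0.15. The native tiles that did not exceed 67.8% lay within the range of the scrambled identities, and some tiles aligned out of order. Native 12 aligned to bases 528 to 621 from the RefSeq start and native 15 to bases 90 to 174. Such identities need not compare matching stretches. The correlations are descriptions over tiles that share bases.

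Of the barcodes left out for low DNA counts, 27 were native and 14 scrambled. No count in any library was found for 5 and 4 of them. A mean of 10 or more RNA counts was reached by 1 native and 4 scrambled barcodes, the highest at 37.0 counts for a scrambled barcode.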
